A study of Mus musculus with 9 samples.

Results

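Transcription factors that give identity to interneurons of the spinal cord and hindbrain, Sim1, Evx1, En1, Lhx1, Lhx5, Tlx3, Lbx1, Pou4f1 and Uncx, were followed in neural progenitors made from mouse embryonic stem cells. The members were found by exact symbol, and all 9 were present among the 38197 gene symbols of the count table. The cells were wild type, of strain 129, grown as a monolayer and exposed to retinoic acid (RA) and to SAG, an agonist of the hedgehog receptor component Smo, from 0 to 3 days in differentiation conditions (DDC). Progenitors were collected with magnetic beads against the surface protein prominin-1 at 4.5DDC, 5.5DDC or 6.5DDC, with 3 libraries per time point. PolyA-selected RNA was sequenced. The same labels also write these times as 4, 5 and 6 days. No untreated culture or purified interneuron is among the libraries, so the time points were compared with one another.

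Interneurons of the embryonic spinal cord and caudal hindbrain arise from progenitor domains stacked from ventral to dorsal, and each domain is set by opposing gradients of hedgehog signalling from below and BMP and Wnt signalling from above. The ventral classes run from V3, born next to the floor plate from Nkx2-2-expressing progenitors, up through V2, V1 and V0, and the dorsal classes are named dI1 to dI6. Each class switches on its own homeodomain, bHLH or bHLH-PAS factors as its cells leave the cycle, and these factors then direct axon course and transmitter choice.

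The libraries held between 11066572 and 25506192 counts each. A count of 3 was taken as the floor of detection, which corresponds to between 0.118 and 0.271 CPM (the count over the library total, in parts per 1000000) in a single library, and floors and intervals cover counting error only. Across all genes, the deviations of a library from the mean of its time point correlated between −0.653 and −0.123 when replicate 1 was set against replicate 2 or 3 of another time point. Among the members, the CPM of Sim1 in replicate 1 lay above replicates 2 and 3 at 4.5DDC and below them later, whereas Pou4f1 in replicate 1 of 5.5DDC lay between them. Within a time point the 3 deviations of a gene cancel out, so negative correlations against replicates 2 and 3 are in part forced. Genes are not independent replicates either, and these values describe the libraries only. Tests and calls are therefore given with and without replicate 1, a setting chosen after the data were seen, and mean levels with all libraries only. The labels do not say whether the 3 libraries of a time point came from separate cultures, so p-values measure the spread among these libraries, which may be technical.

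Levels were compared between genes in FPKM, which scales the reads of a gene by its transcript length and by the mapped reads of the library. At 4.5DDC the order by mean FPKM was Pou4f1 at 2.90 ± 0.665 (SD, n = 3), Lhx1 at 0.359 ± 0.0729, Sim1 at 0.281 ± 0.119 and En1 at 0.0353 ± 0.0360. Libraries of Lhx1 and Sim1 overlapped there, while each Pou4f1 library lay above all libraries of the others. At 5.5DDC Pou4f1 stayed first at 3.00 ± 0.251 FPKM, followed by Sim1 at 0.759 ± 0.534, Lhx1 at 0.492 ± 0.405, Uncx at 0.156 ± 0.0995 and En1 at 0.0658 ± 0.0581. At 6.5DDC the order was Sim1 at 3.86 ± 3.44 FPKM, Pou4f1 at 2.58 ± 1.40, Lhx1 at 1.27 ± 1.78, Uncx at 0.494 ± 0.446, En1 at 0.0590 ± 0.0608 and Evx1 at 0.0304 ± 0.0288. Neighbours in the last order did not differ beyond their spread. Lbx1 was listed at 0 FPKM throughout, and Tlx3 and Lhx5 had means of at most 0.0168 FPKM at any time point.

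**Figure D1:**
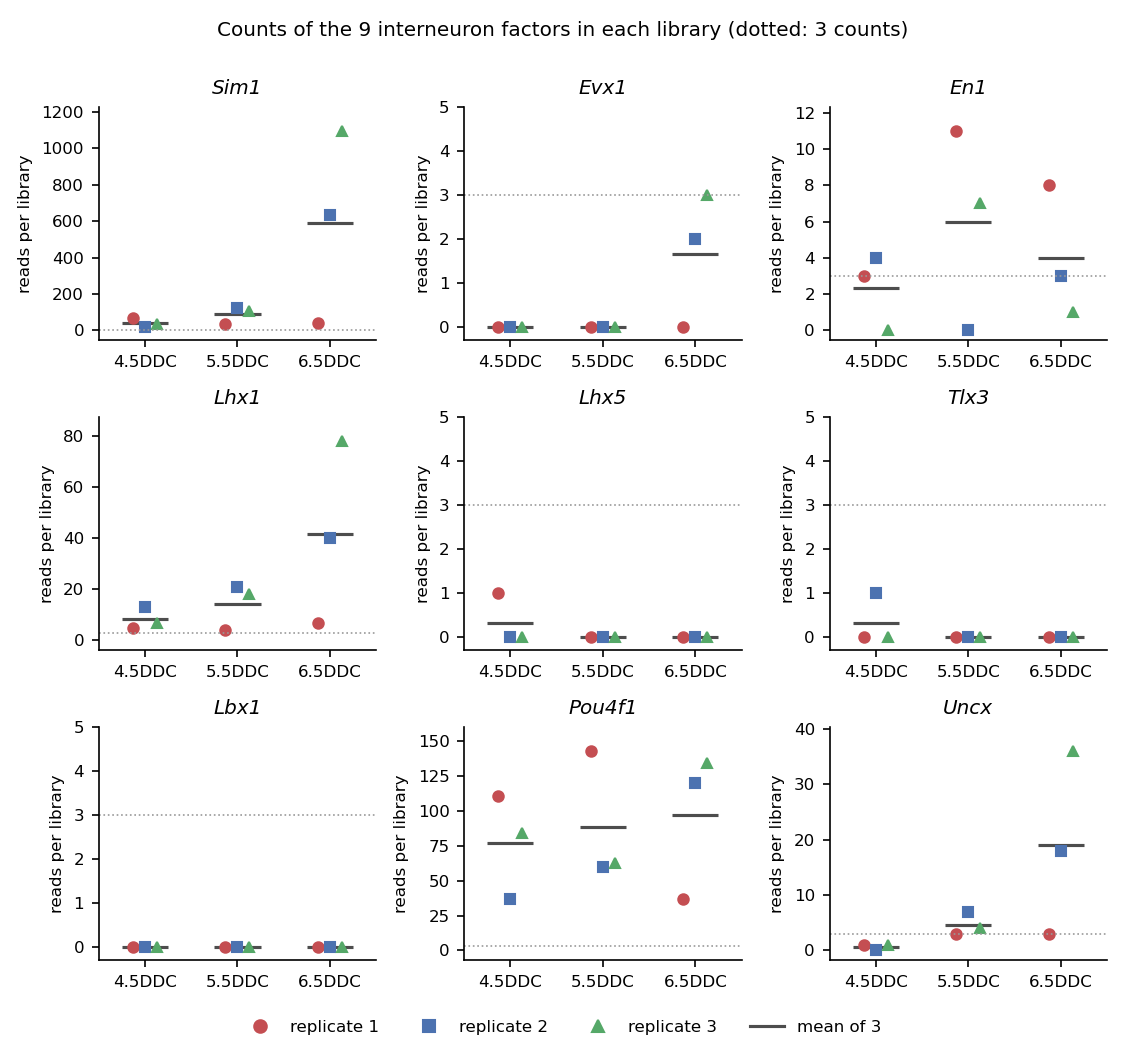
Counts of the 9 factors in each library, by time point, with replicates as coloured symbols, the mean of 3 libraries as a bar and the floor of 3 counts as a dotted line; each panel has its own linear axis. Sim1 reached 636 and 1096 counts in replicates 2 and 3 of 6.5DDC against 42 in replicate 1, while Evx1, Lhx5, Tlx3 and Lbx1 did not exceed 3 counts in any library.

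Sim1, a bHLH-PAS factor that V3 neurons express as they are born and that they need for their normal axon paths, lies on GRCm38 at chr10:50894754-50989152, plus strand. Its counts were 71, 19 and 35 at 4.5DDC, 35, 121 and 107 at 5.5DDC, and 42, 636 and 1096 at 6.5DDC, in the order of replicates 1, 2 and 3. In FPKM these were 0.411, 0.178 and 0.254, then 0.144, 1.11 and 1.02, then 0.349, 4.02 and 7.22. Replicates 2 and 3 of 6.5DDC were the highest of the 9 libraries, and replicate 1 of 6.5DDC lay below replicate 1 of 4.5DDC, so the 3 time points overlapped. Within a replicate number, the CPM ratio of 6.5DDC to 4.5DDC was 0.820 for replicate 1, 22.8 for replicate 2 and 28.3 for replicate 3. Bulk RNA cannot tell more cells of a type from more RNA per cell.

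In the edgeR fit across 14742 genes, Sim1 rose from 4.5DDC to 6.5DDC by 3.72 ± 1.0 (log2, SE; adjusted p 0.0310), and it was higher in 2 of 3 replicate numbers. The two-sided exact permutation test on CPM gave p 0.2, where 3 libraries against 3 cannot go below 0.1. Here and later a gene is called when its p, adjusted over all genes fitted, is under 0.05. The call was lost when any library of 4.5DDC was left out, with adjusted p of 0.0576 without replicate 1, 0.115 without replicate 2 and 0.0851 without replicate 3. It was also lost without replicate 2 (0.0789) or replicate 3 (0.0782) of 6.5DDC. It was not called by limma voom (adjusted p 0.165) or from FPKM, and over 21 alternatives the change ranged from 1.58 to 4.62 and its adjusted p from 0.000284 to 0.165, with 13 calls. Without replicate 1 of every time point the change was 4.62 ± 0.35 (adjusted p 0.000284), and the 4.5DDC libraries then lay entirely below those of 5.5DDC, which lay below those of 6.5DDC.

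For the shorter intervals, the log2 difference of Sim1 was 1.33 ± 0.96 between 4.5DDC and 5.5DDC (SE; adjusted p 0.551) and 2.39 ± 0.94 between 5.5DDC and 6.5DDC (adjusted p 0.229), neither past the threshold of 0.05 in edgeR. Without replicate 1 both passed, at 2.22 ± 0.35 (adjusted p 0.0221) and 2.40 ± 0.30 (adjusted p 0.0114). Over the alternatives the adjusted p ranged from 0.0221 to 0.880 for the first interval and from 0.0114 to 0.557 for the second. The difference between the intervals was 1.06 ± 1.63 with all libraries (adjusted p 0.880) and 0.19 ± 0.56 without replicate 1 (adjusted p 0.940), and its adjusted p over the alternatives ranged from 0.739 to 0.999.

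Uncx, a paired-type homeodomain factor present in V3 neurons and also in somites, lies at chr5:139543494-139548179, plus strand. It had 1, 0 and 1 counts at 4.5DDC, 3, 7 and 4 at 5.5DDC, and 3, 18 and 36 at 6.5DDC. Every library of 4.5DDC was under the floor, and both later time points lay above them in CPM without overlap, although replicate 1 was at the floor of 3 counts in each. The summed counts, scaled by library totals, gave a ratio of 27.4 for 6.5DDC over 4.5DDC (57 against 2 counts, exact 95% interval 7.24 to 231) and 6.32 for 5.5DDC over 4.5DDC (14 against 2 counts, interval 1.45 to 57.3). Without replicate 1 these ratios were 42.7 (54 against 1 count, interval 7.35 to 1719) and 12.5 (11 against 1 count, interval 1.81 to 536). The later pair had a ratio of 4.33 (interval 2.38 to 8.42), and there the libraries overlapped. The exact permutation test gave its smallest possible p of 0.1 for both comparisons with 4.5DDC, adjusted over the members and pairs to 0.764.

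The filter on low counts left Uncx out of the fit with all libraries. Without any filter the change from 4.5DDC to 6.5DDC was 4.51 ± 1.02 (log2, SE; edgeR adjusted p 0.0115). In the same fit neither shorter interval passed, at 2.65 ± 1.14 from 4.5DDC to 5.5DDC (adjusted p 0.402) and 1.86 ± 0.79 from 5.5DDC to 6.5DDC (adjusted p 0.316). In filtered fits with libraries left out, Uncx passed through replicates 2 and 3 of 6.5DDC alone, where it was highest, so its calls in those fits support nothing further. Among 23122 symbols with a count, 10.4% lay higher at 5.5DDC than at 4.5DDC with no overlap of CPM, and 13.2% lay higher at 6.5DDC. The corresponding numbers of members were 1 of 9 and 1 of 9, Uncx in each case, so the share of members was near the background.

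The sequence just before the RefSeq start was examined for these 2 V3 genes because both were highest in the same libraries. The motifs were CAGATG, a form of E-box bound by proneural bHLH proteins, TAATTA, a core bound by many homeodomain proteins, and AAGTG, the core of NK2-family sites, and they were chosen after the windows had been seen. Both strands of the 250 bases before the start were searched in the RefSeq table for GRCm38.p6, which held 7 of the 9 members and not Lhx5 or Lbx1. Sim1 had 2 matches to CAGATG, which 14.5% of 27025 promoters held, and Uncx had 2 matches to TAATTA, which 4.9% held. No other member with an entry held either motif, and AAGTG, held by 40.8% of promoters, occurred once in En1 and once in Pou4f1. By GENCODE, 178 of the 250 bases for Sim1 and all 250 for Uncx fall within annotated exons. The stretches below are on the plus strand, at chr10:50895425-50895454, chr10:50895586-50895615, chr5:139543753-139543782 and chr5:139543856-139543885, with the motif in capitals. A match describes the letters only.
Sim1 distal stretch: tgagtttagccaCAGATGtcttattccttg
Sim1 proximal stretch: cttaccgcggatCAGATGaaaaggttggct
Uncx distal stretch: gcgtgtcaggtaTAATTAgcaatcgatatg
Uncx proximal stretch: ccgggccgcggcTAATTAtcgagagcttga

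The V3 list held 4 further genes. Neurog3, a proneural bHLH factor transcribed in the most ventral progenitors, had 13, 24 and 15 counts at 4.5DDC, 43, 141 and 145 at 5.5DDC, and 13, 527 and 992 at 6.5DDC. As with Sim1, replicates 2 and 3 of 6.5DDC were the highest libraries and replicate 1 of 6.5DDC fell within the 4.5DDC range. Neurog3 rose from 4.5DDC to 6.5DDC by 4.61 ± 1.24 (log2, SE; edgeR adjusted p 0.0305; 13 of 21 alternatives, 0.000392 to 0.237). That call was lost without replicate 1, 2 or 3 of 4.5DDC (adjusted p 0.0824, 0.0846 and 0.0861) and without replicate 2 or 3 of 6.5DDC (0.0748 and 0.0733). Without replicate 1 of every time point it was 4.87 ± 0.42.

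Nkx2-9, a homeodomain factor of ventral progenitors, went the opposite way. Its counts were 54, 163 and 73 at 4.5DDC, 19, 20 and 16 at 5.5DDC, and 1, 3 and 10 at 6.5DDC, with no overlap between any pair of time points. Between 4.5DDC and 6.5DDC it fell by 4.59 ± 0.78 (log2, SE; edgeR adjusted p 0.00537), a call kept in 21 of 21 alternatives. Nkx2-2, which specifies V3 progenitors in the spinal cord and visceral motor and serotonergic progenitors in the hindbrain, was at 7.87, 14.2 and 11.1 FPKM at 4.5DDC, 10.2, 17.2 and 17.9 at 5.5DDC, and 7.28, 12.5 and 18.8 at 6.5DDC. The 3 time points overlapped, and the change from 4.5DDC to 6.5DDC was 0.16 ± 0.35 (adjusted p 0.780). Olig3, which marks progenitors of V3 and of the dorsalmost classes, had between 3 and 45 counts.

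**Figure D2:**
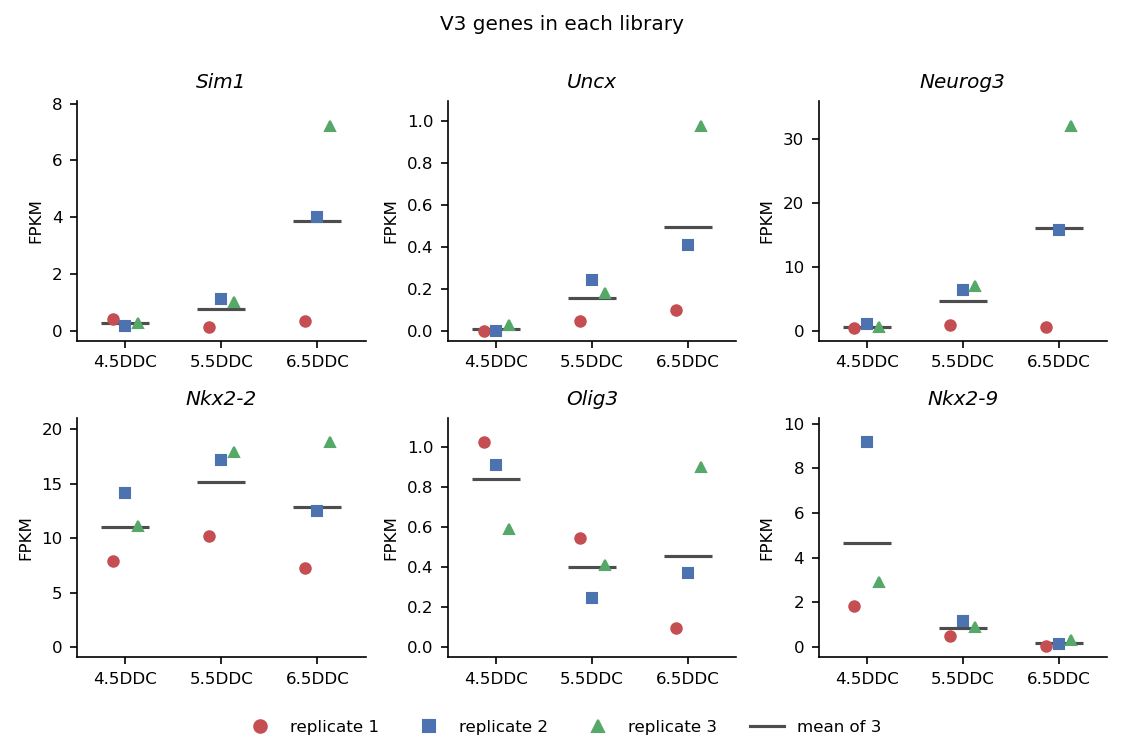
FPKM of the 6 V3 genes in each library, by time point, with replicates as coloured symbols and the mean of 3 libraries as a bar. Sim1 (4.02 and 7.22) and Neurog3 (15.7 and 32.1) were highest in replicates 2 and 3 of 6.5DDC, while Nkx2-9 was highest at 4.5DDC, between 1.82 and 9.18.

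Lhx1, a LIM homeodomain factor of V0, V1, V2b, dI2, dI4 and dI6 neurons that also acts in limb innervation by motor neurons, lies at chr11:84518284-84525535, minus strand. Its counts were 5, 13 and 7 at 4.5DDC, 4, 21 and 18 at 5.5DDC, and 7, 40 and 78 at 6.5DDC. Replicates 2 and 3 of 6.5DDC were the highest libraries, replicate 1 of 6.5DDC lay within the counts of 4.5DDC, and the time points overlapped. From 4.5DDC to 6.5DDC the change was 2.06 ± 0.94 (log2, SE; edgeR adjusted p 0.147), and it was higher in 3 of 3 replicate numbers, with CPM ratios of 1.94, 2.1 and 10.1. Without replicate 1 it was 2.14 ± 0.49 and passed (adjusted p 0.0141), and the adjusted p ranged from 0.0141 to 0.723 over 21 alternatives with 2 calls. The other call came with replicate number as a block, at 1.87 ± 0.53 (adjusted p 0.0325).

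The 2 shorter intervals gave Lhx1 changes of 0.85 ± 0.97 (adjusted p 0.732) and 1.21 ± 0.89 (adjusted p 0.476). Deposited FPKM did not follow the counts of Lhx1 closely. Its FPKM were 0.434, 0.355 and 0.288 at 4.5DDC, 0.0266, 0.690 and 0.760 at 5.5DDC, and 0.0940, 0.399 and 3.32 at 6.5DDC. FPKM over CPM ranged from 0.164 to 1.55 for Lhx1, against 0.103 to 0.107 for Sim1, so the level of Lhx1 per length is known less well than its counts.

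Pou4f1, a POU homeodomain factor of dI1, dI2, dI3 and dI5 neurons and of sensory neurons, lies at chr14:104461676-104467999, minus strand. It had 111, 37 and 84 counts at 4.5DDC, 143, 60 and 63 at 5.5DDC, and 37, 120 and 134 at 6.5DDC. In FPKM these were 3.33, 2.14 and 3.24, then 3.16, 2.71 and 3.13, then 0.997, 3.08 and 3.66. In FPKM, replicate 1 of 6.5DDC was the lowest of the 9 libraries and replicate 3 of 6.5DDC the highest, and the time points overlapped. The change from 4.5DDC to 6.5DDC was 0.25 ± 0.38 (log2, SE; edgeR adjusted p 0.671), and it was 0.06 ± 0.38 and 0.19 ± 0.38 in the 2 shorter intervals (adjusted p 0.958 and 0.813). Its direction from 4.5DDC to 6.5DDC was the opposite in FPKM, at −0.20 for a pseudocount of 1. FPKM over CPM for Pou4f1 was at most 0.435 in the libraries of 6.5DDC and at least 0.523 in the other 6. Without replicate 1 the change was 0.71 ± 0.32 (adjusted p 0.124, range over alternatives 0.124 to 0.994).

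En1, the homeodomain factor that defines V1 neurons, lies at chr1:120602418-120607992, plus strand, and is also expressed at the midbrain-hindbrain boundary. It had 3, 4 and 0 counts at 4.5DDC, 11, 0 and 7 at 5.5DDC, and 8, 3 and 1 at 6.5DDC. Only 4 of 9 libraries exceeded the floor, and the time points overlapped. The ratio of summed counts, 6.5DDC over 4.5DDC, was 1.65 (12 against 7 counts, exact 95% interval 0.598 to 4.94). Without replicate 1 its direction turned, at 0.791 (4 against 4 counts, interval 0.147 to 4.25), and no difference was detectable at this depth. Evx1, the factor that sets V0 apart from V1, lies at chr6:52313498-52318378, plus strand, and 2.54% of its exonic bases overlap Evx1os on the opposite strand. Its counts were 0 in all libraries of 4.5DDC and 5.5DDC and 0, 2 and 3 at 6.5DDC. All libraries were thus at or under the floor.

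The remaining members were listed here under dorsal classes, which does not make them particular to those classes. Lhx5, which acts beside Lhx1 in keeping inhibitory identity, lies at chr5:120431699-120441223, plus strand, and shares 2.57% of its exonic bases with Gm27199 on the opposite strand. It had 1 count, in replicate 1 of 4.5DDC. Tlx3, which selects an excitatory over an inhibitory fate in dI3 and dI5 neurons, lies at chr11:33200752-33203589, minus strand, and had 1 count, in replicate 2 of 4.5DDC. Lbx1, which divides dI4 to dI6 from the more dorsal classes, lies at chr19:45232684-45235812, minus strand, and had 0 counts in all 9 libraries, which allows up to 0.0219 CPM over their summed totals. Transcripts of these 3 genes were not detectable at this depth.

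The expression filter kept 3 of the 9 members, Sim1, Lhx1 and Pou4f1. Sim1 and Lhx1 were highest at 6.5DDC, where a filter passes a gene most easily, so the count of calls among members that passed supports nothing about the group. From 4.5DDC to 5.5DDC edgeR called 0 of 3 beside 0.0746% of 14742 genes. There 0 members stood beside 2275 genes at an unadjusted p under 0.05, 495 called by DESeq2, 11 by limma voom and 212 by edgeR with replicate number as a block. From 5.5DDC to 6.5DDC edgeR called 0 of 3 beside 0.224% of genes. At an unadjusted p under 0.05 there were 1 member (Sim1) and 2733 genes, and 0 members stood beside 662 genes called by DESeq2, 37 by limma voom and 195 with the block. From 4.5DDC to 6.5DDC edgeR called 1 of 3, Sim1, beside 18.7% of genes called and 9.21% called higher. DESeq2 likewise called Sim1 alone beside 3674 genes, limma voom 0 members beside 2660 genes, and edgeR with the block Sim1 and Lhx1 beside 3418. With a library left out, edgeR called 1125 to 3132 genes of 14833 to 15169 fitted. The count of members was then 0 without replicate 1 or 2 of 4.5DDC (beside 2213 and 1152 genes) or replicate 2 or 3 of 6.5DDC (1125 and 2063 genes). It was 1 (Uncx) without replicate 3 of 4.5DDC, beside 2027 genes. It was 2 (Sim1 and Uncx) without replicate 1, 2 or 3 of 5.5DDC (beside 3112, 1964 and 2037 genes) or replicate 1 of 6.5DDC (3132 genes). Uncx passed the filter in each of these through 6.5DDC alone.

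Without replicate 1 the fit held 4 members. It called 1 from 4.5DDC to 5.5DDC beside 3.31% of 14638 genes, 1 from 5.5DDC to 6.5DDC beside 4.97%, and 3 from 4.5DDC to 6.5DDC beside 31.3%. Sim1 was the call in both shorter intervals, and Sim1, Lhx1 and Uncx were the calls over the whole span. Without the filter 8 members could be fitted, and 2 (Sim1 and Uncx) were called from 4.5DDC to 6.5DDC beside 11.2% of 23118 genes. For the difference between the 2 intervals edgeR called 0 of 3 members beside 0% of genes. At an unadjusted p under 0.05 that difference counted 0 members and 701 genes, and DESeq2 and limma voom each called 0 of both. With 1 library left out, edgeR called 1 gene without replicate 2 of 5.5DDC and 2 without replicate 1 of 6.5DDC, and 0 members.

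**Figure D3:**
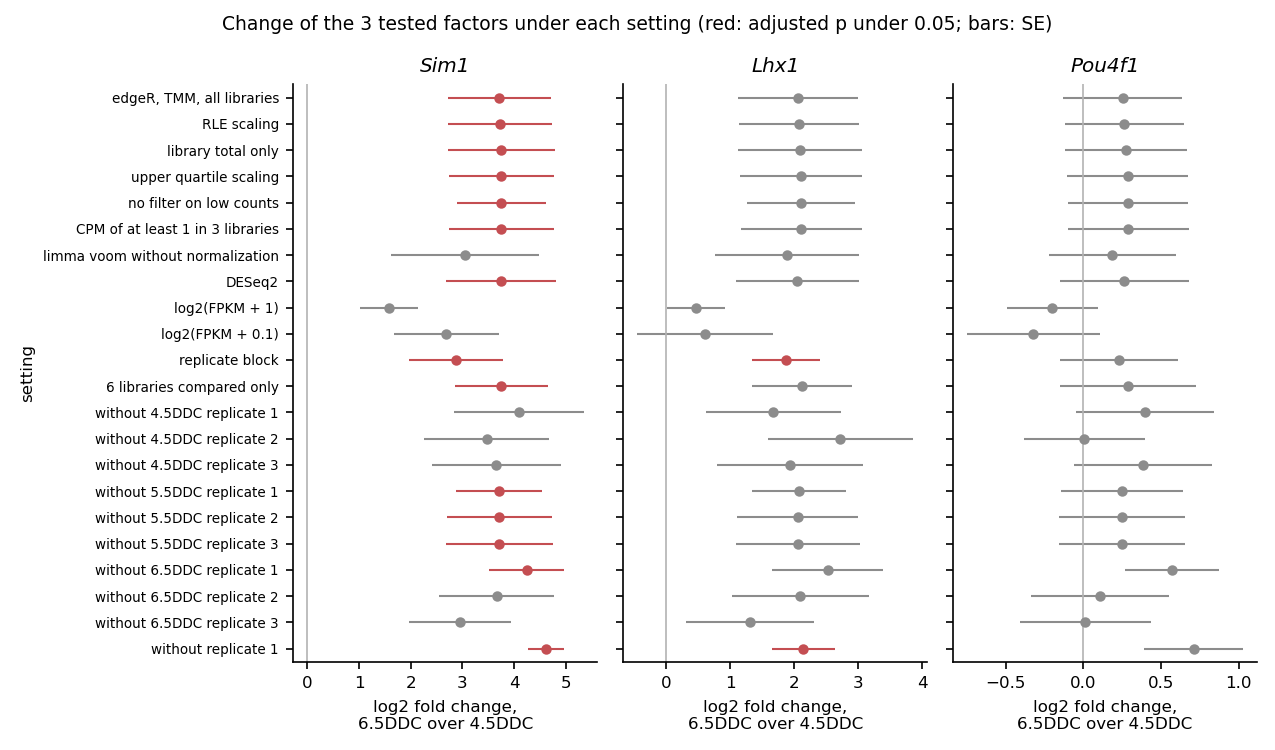
Change of Sim1, Lhx1 and Pou4f1 from 4.5DDC to 6.5DDC under each setting, as log2 fold change with SE, in red where the adjusted p was under 0.05. Sim1 lay between 1.58 and 4.62 in all settings drawn, Lhx1 between 0.467 and 2.72, and Pou4f1 between −0.322 and 0.711, on both sides of 0.

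Lists of genes for each class placed the members among their usual companions, and a gene can stand in several lists. Among V0 genes 3 of 4 did not exceed 3 counts in any library, and Dbx1, the most abundant by mean FPKM, summed with the others to at most 0.416 FPKM. Evx2 was at 0 counts in all libraries. The V1 list summed to between 1.61 and 7.18 FPKM, led by Foxp2, with the defining gene En1 near the floor. In the V2a list the defining gene Sox14 reached 2 counts, while the sum of 31.0 to 41.0 FPKM came mostly from Sox21, which progenitors also express. Of these 3 lists 0 of 4, 3 of 6 and 4 of 7 genes passed the filter, and with all libraries edgeR called 0 from 4.5DDC to 6.5DDC. Shox2, of the V2a list, changed by 2.55 ± 0.80 (log2, SE; adjusted p 0.0510), short of a call, and was called higher in 11 of 21 alternatives, among them the block and the fit without replicate 1. Without replicate 1 Sp8, Lhx3 and Lhx4 were called lower, Sp8 with the block too. Dbx1 passed the filter without replicate 1 through its 10 and 15 counts in replicates 2 and 3 of 4.5DDC alone, where it was highest. It was then called lower, a call that supports nothing further. With all libraries the V1 and V2a medians were 0.574 and −0.640 (log2) beside 0.00398 for all genes.

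Of 6 V2b genes 4 passed the filter and 2 were called higher at 6.5DDC, with a median change of 1.02. Gata2, a zinc-finger factor of V2b and of serotonergic neurons, had 100, 74 and 69 counts at 4.5DDC, 272, 234 and 224 at 5.5DDC, and 175, 301 and 459 at 6.5DDC, and rose by 1.83 ± 0.33 from 4.5DDC to 6.5DDC (adjusted p 0.00634). Gata3, its partner in both cell types, had 18, 44 and 30 counts, then 50, 69 and 73, then 93, 230 and 270, and rose by 2.46 ± 0.58 (adjusted p 0.0189; called in 18 of 21 alternatives). Libraries of 4.5DDC and 6.5DDC did not overlap in counts for either gene. Gata3 lost its call without replicate 3 of 4.5DDC (adjusted p 0.0557) or replicate 2 of 6.5DDC (0.0608). Tal1, which V2b neurons also express, had between 2 and 10 counts. Without replicate 1, and also with the block, the V2b list had the same 2 calls and Bhlhe22 called lower.

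The V3 list had 2 of 6 genes called higher (Neurog3 and Sim1) and 1 lower (Nkx2-9), with 5 that passed the filter and a median of 0.16. Without replicate 1 all 6 passed, 3 were called higher (Uncx being the addition, through 6.5DDC as said above) and 1 lower. The median was then 2.42, with Uncx among the genes it covers. Its summed FPKM was 11.5, 25.5 and 15.4 at 4.5DDC, 12.4, 26.3 and 27.4 at 5.5DDC, and 8.46, 33.2 and 60.3 at 6.5DDC. The time points overlapped, replicate 1 of 6.5DDC was the lowest of the 9 libraries, and Nkx2-2 was the most abundant gene by mean.

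Dorsal classes had few genes above the filter: 1 of 5 for dI1, 4 of 6 for dI2, 2 of 4 for dI3, 2 of 7 for dI4, 2 of 5 for dI5 and 2 of 4 for dI6. Among genes of these lists, Atoh1, Ptf1a and Lbx1 were at 0 counts in all 9 libraries. Barhl1, Lhx9, Tlx3, Lhx5, Foxd3, Pax8 and Pax2 did not exceed 3. Otp, also listed, and Tlx2, a paralogue of Tlx3, were at 0 counts throughout. By contrast Tlx1, another paralogue of Tlx3 and in the dI5 list, had between 0 and 11 counts. Barhl2, of the dI1 list, had between 0 and 6. The most abundant gene by mean FPKM was Lhx2 in dI1, Pou4f1 in dI2, Isl1 in dI3, Lhx1 in dI4, Lmx1b in dI5 and Bhlhe22 in dI6, and other cell types express each of these as well. The summed FPKM lay between 0.224 and 0.824 for dI1, 1.97 and 11.4 for dI2, 5.68 and 33.2 for dI3, 0.106 and 3.58 for dI4, 8.07 and 32 for dI5, and 0.595 and 4.01 for dI6. Their median changes from 4.5DDC to 6.5DDC were −0.834, 0.482, −1.09, −0.277, 0.384 and −1.58 in the same order.

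Calls in the dorsal lists were 0 higher and 2 lower with all libraries. Isl1, a LIM homeodomain factor of dI3 and of motor and sensory neurons, had 926, 1019 and 1016 counts at 4.5DDC, 587, 501 and 479 at 5.5DDC, and 171, 253 and 167 at 6.5DDC. Its time points did not overlap in counts, and between 4.5DDC and 6.5DDC it fell by 2.44 ± 0.31 (log2, SE; edgeR adjusted p 0.00173; called in 21 of 21 alternatives). Gbx1, a homeodomain factor of dI4 and related dorsal neurons, had 33, 77 and 68 counts, then 9, 16 and 22, then 2, 17 and 15, and fell by 2.62 ± 0.76 (adjusted p 0.0394). The call for Gbx1 was lost without replicate 2 (adjusted p 0.132) or 3 (0.0821) of 4.5DDC, without replicate 2 of 5.5DDC (0.0595), or without replicate 1, 2 or 3 of 6.5DDC (0.0713, 0.0879 and 0.0765). Without replicate 1 of every time point, Lhx1 and Lmx1b were called higher in these lists and Isl1, Gbx1, Neurog1 and Bhlhe22 lower, and with the block the calls were the same except for Lmx1b. For the dorsal and intermediate progenitor genes, 9 of 19 passed, 0 were called by edgeR in either direction and the median was −0.891. That list, led by Pax6, summed to 8.81, 21.0 and 13.6 FPKM at 4.5DDC, 6.73, 8.07 and 5.96 at 5.5DDC, and 5.77, 6.17 and 5.82 at 6.5DDC. Without replicate 1 edgeR called 4 lower (Dbx1, Neurog1, Neurog2 and Pax6), of which Dbx1 passed the filter through 4.5DDC alone, as said above. With the block edgeR called 3 lower (Irx3, Neurog1 and Neurog2). Neurog1 had 14, 39 and 15 counts at 4.5DDC, 5, 13 and 12 at 5.5DDC, and 1, 5 and 7 at 6.5DDC. With all libraries it passed the filter only through 4.5DDC, where it was highest. Its call with the block therefore supports nothing further.

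**Figure D4:**
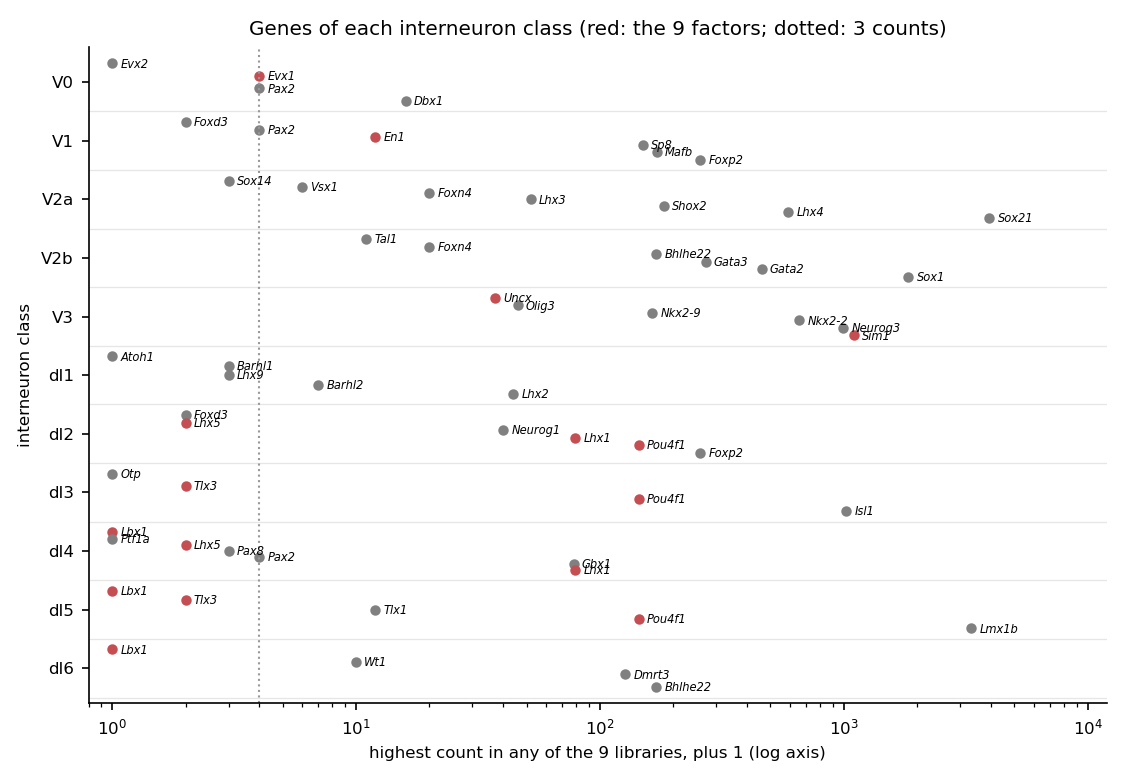
Highest count of each class gene in any of the 9 libraries, plus 1, on a log axis, with the 9 factors in red and the floor of 3 counts as a dotted line. Evx2, Atoh1, Ptf1a, Otp and Lbx1 were at 0 in all libraries, whereas Sim1 and Neurog3 of the V3 class reached 1096 and 992 counts.

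Interneurons also carry transmitter genes, and 8 of those listed were in the table. Of these, 2 passed the filter and 1 was called higher from 4.5DDC to 6.5DDC, with a median of 2.22 among those that passed. Without replicate 1, 3 passed and 2 were called higher (Slc17a6 and Slc17a8), with a median of 4.42 that includes Slc17a6. Slc17a8, a vesicular glutamate transporter also found in serotonergic neurons, had 102, 33 and 130 counts at 4.5DDC, 313, 440 and 342 at 5.5DDC, and 849, 2151 and 2285 at 6.5DDC, with no overlap in counts between time points. It rose by 4.23 ± 0.54 (log2, SE; edgeR adjusted p 0.00173; called in 21 of 21 alternatives). Slc17a6, the vesicular glutamate transporter that V3 neurons use, had 0 counts in all libraries of 4.5DDC, 0, 4 and 1 at 5.5DDC, and 0, 15 and 36 at 6.5DDC. It was outside the fit with all libraries and passed the filter without replicate 1 through the 6.5DDC libraries alone, so its entry and call support nothing further. Gad1, which encodes an enzyme of GABA synthesis, had 1 count in each library of 4.5DDC, 0, 0 and 2 at 5.5DDC, and 2, 9 and 12 at 6.5DDC, and Gad2, its paralogue, had 0, 0 and 4, then 1, 1 and 1, then 0, 6 and 5. Slc32a1, the vesicular transporter of GABA and glycine, did not exceed 1 count, and Slc6a5, the glycine transporter, did not exceed 3.

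Several members act in complexes, LIM factors through Ldb adaptors and bHLH-PAS factors through Arnt proteins. Of 15 partner genes 14 passed the filter, 4 were called higher from 4.5DDC to 6.5DDC (Ldb2, Lmo3, Lmo4 and Ssbp2) and 1 lower (Lmo1), with a median of 0.0584. Ldb2 had 9, 7 and 11 counts at 4.5DDC, 3, 69 and 57 at 5.5DDC, and 9, 280 and 334 at 6.5DDC, so replicates 2 and 3 were again high and replicate 1 lay with the 4.5DDC libraries. It rose by 4.32 ± 1.31 (edgeR adjusted p 0.0468; 10 of 21 alternatives, 0.000199 to 0.262). Leaving out replicate 1, 2 or 3 of 4.5DDC gave Ldb2 an adjusted p of 0.113, 0.141 or 0.104, replicate 2 or 3 of 5.5DDC 0.0620 or 0.0656, and replicate 2 or 3 of 6.5DDC 0.119 or 0.0968. Lmo4 lost its call without replicate 1 or 2 of 4.5DDC (0.0624 and 0.0681), replicate 2 of 6.5DDC (0.0565) or replicate 1 of every time point (0.0585), and Ssbp2 without replicate 2 of 4.5DDC (0.0602). Arnt2, a partner of Sim1, had between 1796 and 3532 counts. Of 18 paralogues of the members, 8 passed, 1 (Isl1) was called lower and the median was −0.799, and their sum fell between 16.8 and 52.7 FPKM. Without replicate 1, Lmx1b was called higher among the paralogues and Isl1, Lhx3 and Lhx4 lower.

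The beads select a progenitor protein, so neuronal genes were read in the same libraries. All 9 neural progenitor genes passed the filter and summed to between 2114 and 3120 FPKM, led by Vim. Prom1, which encodes the sorted protein, rose by 1.19 ± 0.18 from 4.5DDC to 6.5DDC (edgeR adjusted p 0.00364), and Sox3 fell by 1.80 ± 0.49 (adjusted p 0.0330), a call lost without replicate 2 of 4.5DDC (0.125) or replicate 1 or 2 of 6.5DDC (0.0666 and 0.118). Without replicate 1, and also with the block, Prom1 and Fabp7 were called higher and Sox3 lower. All 13 pan-neuronal genes in the table passed as well and none was at 0 in all libraries. Their summed FPKM was 270, 661 and 452 at 4.5DDC, 222, 747 and 770 at 5.5DDC, and 382, 883 and 943 at 6.5DDC, with Stmn2 the most abundant by mean. Replicate 1 was the lowest of its time point each time, and time points overlapped. From 4.5DDC to 6.5DDC 1 of 13, Map2, was called higher (1.65 ± 0.31, adjusted p 0.00768) and 0 lower, with a median of 0.26. Without replicate 1 there were 4 called higher (Dcx, Map2, Snap25 and Stmn2), with a median of 0.459. With the block there were 3 (Dcx, Map2 and Stmn2), with a median of 0.433.

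At 5.5DDC and 6.5DDC replicate 1 was the lowest both in Sim1 and in this sum, whereas at 4.5DDC Sim1 was highest in replicate 1, where the sum was lowest. The part of neurons in the result of Sim1 was not tested. Sim1 FPKM divided by the pan-neuronal sum was 0.00152, 0.000270 and 0.000562 at 4.5DDC, 0.000651, 0.00149 and 0.00133 at 5.5DDC, and 0.000916, 0.00455 and 0.00766 at 6.5DDC. In replicates 2 and 3 this quotient was higher at each later time point, whereas in replicate 1 it was highest at 4.5DDC.

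**Figure D5:**
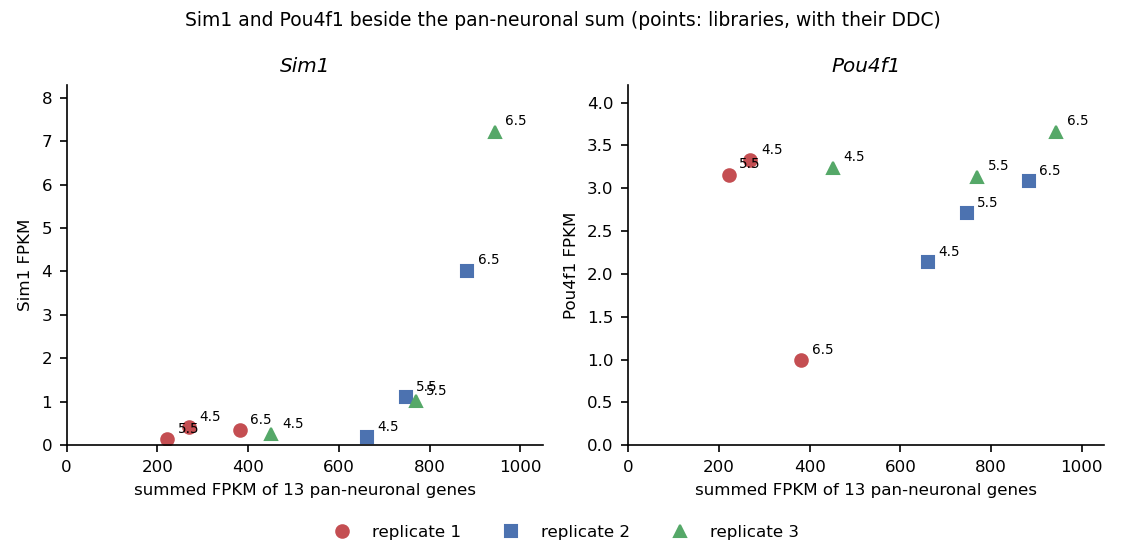
FPKM of Sim1 and of Pou4f1 against the summed FPKM of 13 pan-neuronal genes, with 1 point per library, replicates as coloured symbols and the DDC beside each point. The highest Sim1 values, 4.02 and 7.22 FPKM, lay at the 2 highest sums, 883 and 943, while Pou4f1 was at 3.33 FPKM at a sum of 270.

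Other cell types that express some of the same factors were read from their own lists, from 4.5DDC to 6.5DDC. All 9 motor neuron and serotonergic genes passed, 4 were called higher (Fev, Gata2, Gata3 and Tph2) and 2 lower (Isl1 and Phox2a), with a median of 0.515 and sums from 29.3 to 62.4 FPKM, led by Isl1. Tph2 lost its call without replicate 2 of 4.5DDC (adjusted p 0.0521). Without replicate 1 there were 5 called higher (Lmx1b being the addition) and 4 lower (Mnx1 and Tbx20 being the additions), and with the block 4 higher and the same 4 lower. Fev, which serotonergic neurons need, had 0, 1 and 2 counts at 4.5DDC, 5, 6 and 6 at 5.5DDC, and 27, 32 and 69 at 6.5DDC. Unlike Sim1, it was above the earlier libraries in replicate 1 too. Tph2 had 4, 3 and 6 counts at 4.5DDC, 10, 8 and 9 at 5.5DDC, and 53, 18 and 31 at 6.5DDC. Fev and Tph2 passed the filter only through 6.5DDC, where both were highest. Their calls in these tallies therefore support nothing further. Sensory and neural crest genes, read because Pou4f1 also marks sensory neurons, had 9 of 13 that passed, 0 called higher and 2 lower (Isl1 and Six4), with a median of −0.536. Without replicate 1 P2rx3 was called higher as well, and with the block Eya2 lower. Their sum was 29.2 to 71.7 FPKM, led by Isl1. The crest genes Sox10 and Foxd3 did not exceed 2 counts and 1 count, whereas Tfap2a and Tfap2b of the same list had 4 to 12 and 2 to 26 counts.

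Midbrain-hindbrain boundary genes, read because of En1, had 1 of 7 that passed (En2), 0 called by edgeR, a median of 0.0509 and sums of 0.683 to 2.68 FPKM. Somite and intermediate mesoderm genes, read because of Uncx and Lhx1, had 5 of 11 that passed, 1 called higher (Tbx18, lost without replicate 2 of 6.5DDC at adjusted p 0.0588), a median of 0.837 and sums of 1.55 to 4.66 FPKM, led by Pax9. Without replicate 1 Pax9 and Tbx18 were called higher and Meox1 lower, and with the block Tbx18 higher and Meox1 lower. Meox1 had 13, 16 and 16 counts at 4.5DDC, 2, 10 and 7 at 5.5DDC, and 2, 8 and 3 at 6.5DDC. It passed the filter only through 4.5DDC, where it was highest, so its calls support nothing further. Endoderm genes, among them Foxa2, which the floor plate also expresses, had 8 of 10 that passed, 0 called by edgeR with all libraries, and a median of 0.81. They summed to 203, 130 and 110 FPKM at 4.5DDC, 204, 145 and 145 at 5.5DDC, and 174, 143 and 150 at 6.5DDC, led by Foxa2, so replicate 1 was the highest at each time point. Gata4 had 79, 25 and 16 counts, then 92, 19 and 19, then 219, 44 and 53, in the same order. Without replicate 1 Foxa1 and Foxa2 were called higher and Krt8 lower, and with the block Gata4, Gata6 and Sox17 higher and Krt18 lower. Hypothalamic and forebrain genes, read because of Sim1, had 0 of 8 that passed with all libraries and sums of 0.0527 to 1.11 FPKM, with Otp and Fezf2 at 0 counts in all libraries. Without replicate 1, 1 of 8 passed, Nkx2-1, through its 28 and 25 counts at 4.5DDC against 4 and 2 at 6.5DDC, and it was called lower. Nkx2-1 was highest at 4.5DDC, which alone let it pass, so its call supports nothing further. For each list the part of that cell type in the result of a member was not tested.

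The 3 genes most like each fitted member were taken by Pearson correlation of log2 CPM over the 9 libraries, which share depth and time points. For Sim1 they were 3110035E14Rik (r 0.989, Spearman rho 0.983), Krt20 (r 0.981, rho 0.95) and Hepacam2 (r 0.979, rho 0.95). Filip1 (r 0.991, rho 0.983), Dlgap1 (r 0.989, rho 0.933) and Kif5a (r 0.987, rho 0.983) were nearest to Lhx1. For Pou4f1 they were Ncrna00085 (r 0.944, rho 0.883), Ntrk2 (r 0.943, rho 0.917) and C2cd5 (r 0.938, rho 0.767). With the 2 libraries farthest from the median left out (7 libraries), r was between 0.917 and 0.967 for Sim1, 0.976 and 0.982 for Lhx1, and 0.703 and 0.895 for Pou4f1. The time points and replicate 1 form clusters too small for values within them, so these are descriptions.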

How the data were processed

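RNA-seq of 9 libraries of prominin-1-sorted progenitors was used, 3 each at 4.5DDC, 5.5DDC and 6.5DDC. The authors mapped single-end reads to GRCm38 with TopHat 2.0.4 and counted them with HTSeq 0.6.1; the annotation release and strand setting are not given. The deposited counts were taken to be expected counts, since they were not whole for 98 of 38197 symbols (0 of the 9 members), and were rounded. The step that made these values is not known. The authors computed FPKM with Cufflinks 2.1.1, and the deposited FPKM were used as levels. The authors' log2 values, from limma voom with no normalization step, were checked against the counts (largest difference 5e-14) and not tested.

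Genes were filtered with filterByExpr and scaled by TMM (factors 0.951 to 1.04). An edgeR 4.0.16 quasi-likelihood model with time point as factor was fitted to all 9 libraries and 14742 genes in R 4.3.3 (common dispersion 0.0733, 6 residual degrees of freedom), and p-values were adjusted by Benjamini-Hochberg over all genes at 0.05. The 3 pairs of time points and the difference between the 2 intervals were tested. CPM of each member was compared with a two-sided exact permutation test. Alternatives were 3 other scalings, 2 other filters, limma 3.58.1 (voom, or log2 FPKM with pseudocounts of 1 and 0.1), DESeq2 1.42.0, a block for replicate number, the 6 libraries compared only and each library left out in turn. A further one, without replicate 1, was chosen after the data were seen. The procedure was tested on simulated data, and no result given here rests on that test. Python 3.11.15 was used with matplotlib 3.10.9, scipy 1.17.1, numpy 2.4.6 and pandas 2.3.3.

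Members were matched by exact symbol. The members and the 23 lists were chosen with earlier results of these data known. The lists were V0, V1, V2a, V2b, V3, dI1 to dI6, paralogues, protein partners, dorsal and intermediate progenitors, transmitters, pan-neuronal, neural progenitor, motor neuron and serotonergic, sensory and neural crest, midbrain-hindbrain boundary, somite and intermediate mesoderm, endoderm, and hypothalamic and forebrain genes, with 160 genes in the table and 4 symbols without a match (Drgx, Slc18a3, Tubb3 and Foxc2). Named genes were all members, the list genes called in any pair and the 3 with the highest mean FPKM in each list, and the 3 genes most correlated with each fitted member; some that this rule covers are not reported. Other genes, such as Slc17a6, Olig3 and those at 0 or near the floor, were named after their values were seen. As a pairing check, gene-wise deviations from the time point mean were correlated within replicates 1, 2 and 3. Between 4.5DDC and 5.5DDC r was 0.743, 0.386 and 0.452, between 5.5DDC and 6.5DDC it was 0.454, 0.367 and 0.197, and between 4.5DDC and 6.5DDC it was 0.383, −0.0396 and −0.215. All same-number values were thus over 0.1 for the adjacent time points and not for the outer ones. Replicates 2 and 3 correlated between 0.225 and 0.487 across time points under different numbers. Centring on the time point mean ties all these values to one another. All 3 pairs came from 1 model without the block, and blocked calls are given where they differed, for the lists from 4.5DDC to 6.5DDC only. Gene positions are those of GENCODE M21 (GRCm38), and promoter sequences from RefSeq. The depth of 11066572 to 25506192 counts per library sets the floor of 3 counts at 0.118 to 0.271 CPM. Some genes of the planned lists were left out of the lists and their values. Lists were described by counts and medians and not tested as sets.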

Additional observations from a re-analysis of the deposited data

How the results depend on the processing

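Of 669 changes recomputed over 21 alternatives, 599 kept their direction and side of the threshold, 50 lost a call, 4 gained one and 16 changed direction, none of which was called. The number of members called from 4.5DDC to 6.5DDC was 1 with all libraries. It was 2 without the filter on low counts and 2 with the replicate block (Sim1 at 2.87 and Lhx1 at 1.87), which changed no other call of a member, and 0 by limma voom, by log2(FPKM + 1) and by log2(FPKM + 0.1). Leaving out each library in turn gave 0 to 2. Without replicate 1, chosen after the data were seen, it was 3, and 1 in each shorter interval against 0.

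Changes of direction in the fits concerned Lhx1 and Pou4f1, and the ratio of En1 counts, 6.5DDC over 4.5DDC, turned from 1.65 to 0.791 without replicate 1. From 4.5DDC to 5.5DDC, Lhx1 was −0.043 with log2(FPKM + 0.1), and Pou4f1 ranged from −0.184 to 0.205 with each library left out. For Pou4f1 from 5.5DDC to 6.5DDC, log2(FPKM + 1) gave −0.25, log2(FPKM + 0.1) −0.39, and leaving out libraries −0.0474 to 0.512 (0.52 without replicate 1). From 4.5DDC to 6.5DDC the FPKM values were −0.20 and −0.32. The difference between intervals was −0.835 to 1.32 for Lhx1 and −0.107 to 0.456 for Pou4f1 with libraries left out, and −0.056 by limma voom, −0.30 and −0.46 from FPKM for Pou4f1. The cause was not tested.

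Over all genes, calls from 4.5DDC to 5.5DDC were 11 in the edgeR fit, 25 without the filter, 495 by DESeq2, 7 and 6 from FPKM, 212 with the block, 1 with the 6 libraries only, 1 to 28 leaving out libraries and 485 without replicate 1. From 5.5DDC to 6.5DDC they were 33, against 55 by library total only, 78, 662, 21 and 7, 195, 0, 0 to 196 and 728. From 4.5DDC to 6.5DDC they were 2763, against 1125 to 3132 leaving out libraries and 4586 without replicate 1. The difference between intervals had 0, and 0 to 2 leaving out libraries. With 11066572 to 25506192 counts per library, 6 of 9 members were too few in counts for the fit. Of these, only Uncx and En1 have intervals for a change. These intervals give the range of changes that the counts allow, and not the smallest change that could be seen. For En1, 6.5DDC over 4.5DDC, the interval of 0.598 to 4.94 covers changes in either direction.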

Other observations

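Dmrt3, a DM-domain factor of dI6 neurons, was highest in replicate 1 of every time point. Its counts were 77, 6 and 6 at 4.5DDC, 126, 5 and 4 at 5.5DDC, and 16, 3 and 6 at 6.5DDC, in the order of replicates 1, 2 and 3. Sim1 was highest in replicate 1 at 4.5DDC too, and lowest there at 5.5DDC and 6.5DDC. The edgeR change of Dmrt3 from 4.5DDC to 6.5DDC was −1.59 ± 1.22 (adjusted p 0.380). In the same libraries Lbx1, which dI6 neurons also express, was at 0 counts and Wt1 had between 0 and 9.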
